A study of Mus musculus with 6 samples.

Results

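The genes described here are the processed pseudogenes measured in neonatal mouse cardiomyocytes (CMs) treated with α-ketoglutarate (αKG), chosen as every row of the expression table with the Ensembl biotype processed_pseudogene. They made up 1160 of 20066 rows. Of these, 447 lay wholly inside the span of a protein_coding gene of the same table and 713 lay outside every such gene. CMs were taken from C57BL/6 pups of postnatal day 0 to 1 and cultured for 96 h with the vehicle DMSO (3 libraries) or with 100 µM of a cell-permeable αKG (3 libraries), and total RNA was sequenced. That concentration is the one in the labels, and the study's methods state a higher one for octyl-αKG. The labels give every library the same genotype, C57BL/6, and state a DNase step in the RNA extraction. The labels number the libraries without tying them to isolations, while the study's methods state of neonatal CMs in general that a sample is 1 isolation from hearts pooled over pups. The p-values therefore measure the spread between these libraries and not between single animals.

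A processed pseudogene is a copy of a mature messenger RNA that was reverse transcribed and inserted at a new place in the genome by retrotransposon enzymes. It therefore lacks the introns and usually also the promoter of its parent gene, and most copies are not known to encode a protein. Highly transcribed housekeeping genes, such as those for ribosomal proteins and glyceraldehyde-3-phosphate dehydrogenase (*Gapdh*), have left many copies in the mouse genome. A copy that landed in an intron is part of the unspliced transcript of the gene around it when both lie on the same strand. That surrounding gene is called here the host, and the protein-coding gene whose transcript aligned best to the copy is called the parent.

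How far a copy has drifted from its parent sets which reads can be assigned to it, because reads that fitted several places in the genome had been left out by the authors. The 6 stretches of 150 bases below show this range. They are the 2 members with the highest mean outside genes, of the members with a mean of at least 20 the largest positive and the largest negative difference outside among those whose groups did not overlap (both without a call) and the largest called rise inside a gene, and *Gm15793*, a copy of the ribosomal protein gene *Rpl12* that was added after its values were seen. All are written 5′ to 3′ on the pseudogene's own strand, from GENCODE M21 transcripts in GRCm38 coordinates, and capitals mark bases that differ from the aligned base of the parent.
Gm20008, chr17:22715487-22715636, minus strand: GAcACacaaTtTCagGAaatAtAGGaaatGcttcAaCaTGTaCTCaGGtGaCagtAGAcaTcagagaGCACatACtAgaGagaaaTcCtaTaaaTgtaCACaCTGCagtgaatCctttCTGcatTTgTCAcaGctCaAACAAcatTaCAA
Vamp7-ps, chr2:174047124-174047273, minus strand: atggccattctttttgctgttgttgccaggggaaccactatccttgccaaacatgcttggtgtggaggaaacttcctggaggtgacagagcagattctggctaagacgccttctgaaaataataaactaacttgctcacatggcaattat
Gm6806, chrX:68503531-68503680, plus strand: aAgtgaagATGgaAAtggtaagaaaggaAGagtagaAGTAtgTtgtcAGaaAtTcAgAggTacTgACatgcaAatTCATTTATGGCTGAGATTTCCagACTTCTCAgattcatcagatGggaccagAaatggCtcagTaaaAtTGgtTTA
Gm18706, chr7:46091961-46092110, minus strand: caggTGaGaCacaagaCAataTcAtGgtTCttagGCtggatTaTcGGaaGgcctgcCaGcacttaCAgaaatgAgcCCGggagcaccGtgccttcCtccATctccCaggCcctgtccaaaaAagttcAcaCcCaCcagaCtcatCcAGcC
Gm14769, chrX:84063350-84063499, plus strand: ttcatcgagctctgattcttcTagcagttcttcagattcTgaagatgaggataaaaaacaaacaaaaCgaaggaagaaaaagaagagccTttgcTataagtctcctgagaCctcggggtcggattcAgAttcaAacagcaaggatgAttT
Gm15793, chr1:66849179-66849328, minus strand: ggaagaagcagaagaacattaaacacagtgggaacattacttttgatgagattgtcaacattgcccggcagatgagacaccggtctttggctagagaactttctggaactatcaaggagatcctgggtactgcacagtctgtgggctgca
Each of the first 5 stretches is the window of its member richest in differences, except *Vamp7-ps*, shown from its start, and the last is the window poorest in them. In its window *Gm20008* had 69 differences from *Gm13212*, *Gm6806* had 63 from *Dnaja1*, *Gm18706* had 42 from *Epb41l5* and *Gm14769* had 11 from *Fam133b*. The *Gm15793* window had 0 differences from *Rpl12*, and its longest run without a difference was 162 bases, longer than a whole read of 75 bases. No protein-coding parent was found by alignment for *Vamp7-ps*, so its letters carry no capitals. No *Vamp7* transcript was found in the M21 transcripts, and *Vamp7* itself was not analysed here. Whether reads of *Vamp7* were counted at *Vamp7-ps* was not tested.

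The deposited values are whole numbers made from read counts divided by a size factor for each library. Low values moved in steps, from which 1 read was worth 0.926 to 1.12 and the libraries held 3725428 to 4428655 counted reads. Every listed row reached 2 somewhere among the 6 libraries, so a pseudogene can be listed through the group in which it is high. Members listed through αKG alone had to differ, and counts and medians over the listed members are therefore descriptions. αKG replicate 3 stood apart from the other 2 αKG libraries: over all rows its log2 values correlated at 0.977 to 0.980 with the DMSO libraries and at 0.962 to 0.963 with αKG replicates 1 and 2 (Pearson's r, 20066 rows). Each main result is therefore also given without it. All 10 cardiomyocyte markers were listed, with summed values of 75187 to 78129 in DMSO and 80493 to 113483 in αKG. Of the other cell types, only the endothelial sums were apart between groups, and markers of a list did not all move alike. Across all αKG libraries, 4 of 10 cardiomyocyte markers were higher and 1 lower, and 4 of 5 endothelial markers were lower and 0 higher. Higher were also 2 of 5 fibroblast, 1 of 4 epicardial and 0 macrophage markers, with 0 lower in each of these lists. Over all rows, 13.7% were higher and 14.6% lower. The 5 endothelial markers summed to 1274 to 1429 in DMSO and 582 to 858 in αKG, the 5 fibroblast markers to 2355 to 2525 and 2422 to 5545, the 4 epicardial markers to 78 to 82 and 59 to 377, and the 2 listed of 4 macrophage markers to 9 to 13 and 4 to 28, with *Adgre1* and *Ptprc* not listed. In bulk RNA, more cells of a type and more RNA per cell cannot be told apart, and the part of cell composition in the results below was not tested.

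The first question was where in the genome the pseudogenes with reads lay. GENCODE M21 annotates 9941 processed pseudogenes in GRCm38, of which 1147, or 11.5%, were listed, and 1146 of the 1160 members had the same position in both. Inside a listed protein-coding gene and on its strand, 324 of 588 annotated copies were listed (55.1%). On the strand opposite to such a gene the share was 113 of 1111 (10.2%), in genes that were not themselves listed it was 34 of 429 (7.93%), and outside every coding gene it was 673 of 7807 (8.62%). The median lengths of the annotated copies in these 4 positions lay between 485 and 569 bases. A copy on the strand of a listed gene was thus listed far more often than a copy of like length anywhere else.

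**Figure D1:**
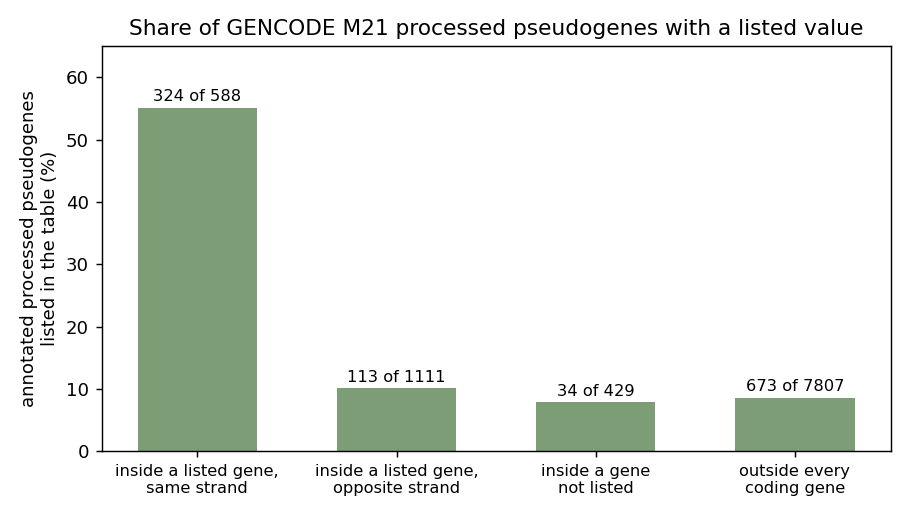
Share of the processed pseudogenes annotated in GENCODE M21 that were listed in the table, in percent, by position relative to protein-coding genes. The bar for copies on the strand of a listed gene stands at 55.1% and the other 3 lie between 7.93% and 10.2%.

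Of the 447 members inside genes, 332 lay on the host's strand and 115 on the opposite strand. By M21 exons, 437 lay in introns and 10 overlapped a host exon. The 332 members shared 303 hosts, 26 of which held more than 1 member. These hosts were long, with a median span of 117 kb. Per kilobase of exon length, the mean level over the 6 libraries had a median of 5.84 for members on the host's strand, 2.13 for members on the opposite strand and 2.21 outside. The level per kilobase of a member went with the level per kilobase of its host on the same strand (Spearman's correlation 0.39 across 332 members) but hardly on the opposite strand (0.02 across 115). These points share libraries and hosts, and the values describe them without a test. On the same strand the members' levels per kilobase were at the median 14.3% of those of their hosts.

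The summed level on the host's strand was higher in αKG. In the order of replicates 1 to 3, which is kept for all values below, DMSO libraries summed to 1332, 1601 and 1452 and αKG libraries to 3395, 3161 and 1748. The means were 1462 ± 135 and 2768 ± 891 (SD, n = 3), a ratio of 1.89. All 3 αKG sums were above all 3 DMSO sums, with replicate 3 the nearest to DMSO. On the opposite strand the sums were 212, 244 and 282 in DMSO and 275, 285 and 271 in αKG, and the groups overlapped. Outside genes they were 2303, 2410 and 2447 in DMSO and 2555, 2467 and 2425 in αKG, which also overlapped, with a ratio of 1.04. Of the 3 positions, the sums were thus apart only for copies on the strand of a host.

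**Figure D2:**
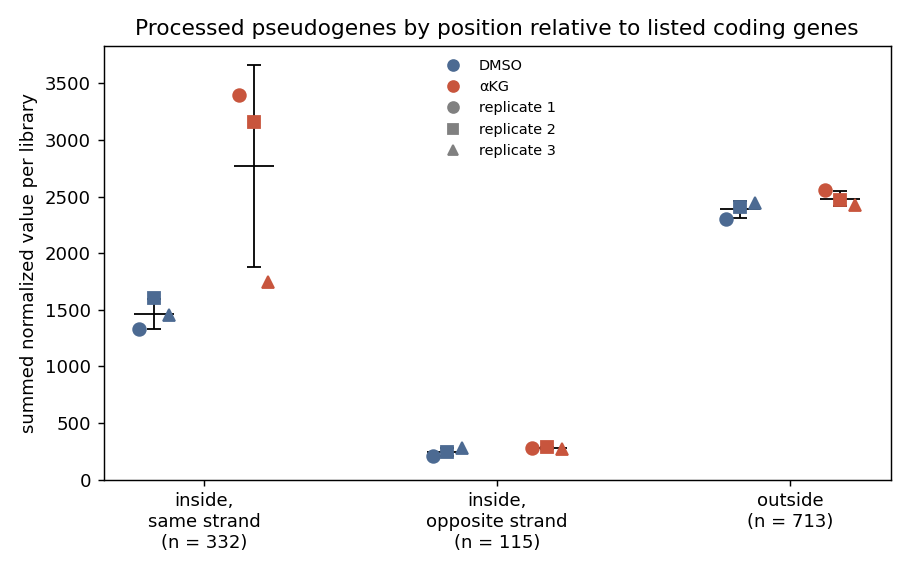
Summed normalized values of processed pseudogenes per library, for members inside a coding gene on its strand, inside on the opposite strand, and outside. Blue is DMSO and red is αKG, the symbol gives the replicate number, and bars show the mean ± SD of 3 libraries. On the host's strand αKG replicates 1 and 2 stand at 3395 and 3161 and replicate 3 at 1748, against 1332 to 1601 in DMSO.

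The same held for the number of pseudogenes with reads. At least 3 estimated reads were held on the host's strand by 131, 161 and 141 members in DMSO and 226, 218 and 163 in αKG. Outside genes the numbers were 257, 286 and 292 in DMSO and 243, 212 and 267 in αKG. The groups did not overlap on the host's strand and overlapped outside. A value of at least 2 was reached in αKG but in no DMSO library by 75 members on the host's strand and in DMSO alone by 4. Outside the numbers were 146 and 75, and over all rows 1600 and 279.

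Fold changes of single members followed the same division. On the log2(value + 1) scale, which understates the change of low rows, the median difference between αKG and DMSO was 0.67 on the host's strand, 0 on the opposite strand and 0 outside, beside 0.04 over all rows and −0.03 over 14257 protein_coding rows. A positive difference was found in 277 of 332 members on the host's strand and a negative one in 45. Outside, 342 of 713 were positive and 346 negative. Relative to the DMSO mean, the median member on the host's strand stood at 1.02, 0.92 and 0.17 in αKG replicates 1 to 3 and between −0.13 and 0.12 in the DMSO libraries. Without αKG replicate 3 the medians were 0.92 on the host's strand, 0.13 on the opposite strand and −0.05 outside. With each library scaled to the same quantiles they were 0.34, −0.29 and −0.36, beside −0.06 over all rows, so that the distance between positions remained while the level outside turned negative.

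**Figure D3:**
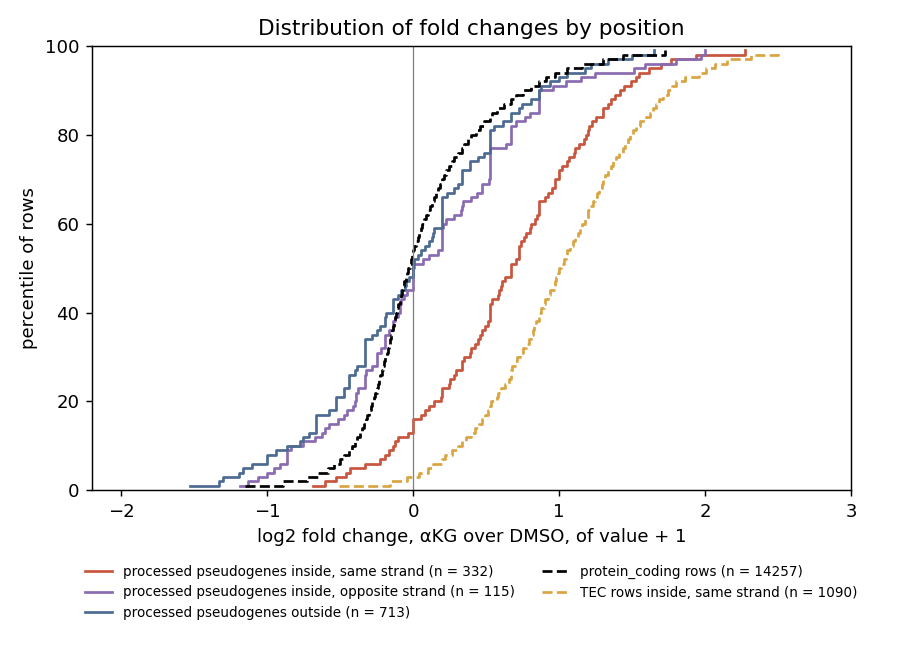
Cumulative distribution of log2 fold changes of value + 1 (αKG over DMSO, x axis) as percentiles of rows (y axis), for processed pseudogenes by position and, as dashed lines, for protein_coding rows and for TEC rows inside a gene on its strand. Pseudogenes on the host's strand reach their 50th percentile at 0.67, TEC rows at 1.00, and the other pseudogenes at 0.

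Non-overlap between groups gave the same picture. All αKG libraries were above all DMSO libraries for 58 members on the host's strand, 17.5% of them, and below for 0, beside 13.7% of all rows above and 14.6% below. Outside, 27 members (3.79%) were above and 23 (3.23%) below, and on the opposite strand 9 and 3. Shares are low where values are low, since most members had a mean under 10. Among members with a mean of at least 10, 19 of 56 on the host's strand were above and 0 below, while outside 5 of 36 were above and 2 below. Over all rows of that level 16.1% were above and 20.6% below. The mean of 10 is over all 6 libraries, so a member can pass through the group in which it is high. The share of all members on the host's strand that lay above was near the background, and 0 lay below.

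At an adjusted p under 0.05 (limma over all rows with Benjamini-Hochberg adjustment), 7 of 1160 members were called, all of them higher in αKG, beside 3.78% of all rows called, 2.83% higher and 0.952% lower. The share of members called, 0.603%, was below the background. Of the 7, 6 lay on the host's strand, 1 on the opposite strand and 0 outside, where 55 of 713 members had an unadjusted p under 0.05, a smaller share than the 28.1% of all rows. Among the 7, *Gm16236* on a host's strand and *Gm19144* on the opposite strand were listed through αKG alone and had to differ. Without αKG replicate 3, 150 members were called beside 37.2% of all rows. Of these, 85 on the host's strand were higher and 0 lower, on the opposite strand 7 and 3, and outside 31 and 24. Leaving out any other single library gave 0 called members. The share of all rows called in those omissions is not given here, so these counts cannot be read as a trait of the members. The number called thus depended on which libraries entered.

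The second question was whether a pseudogene moved together with its host. Among the 109 members on the host's strand with a mean of at least 5, 100 had a positive difference while 57 of their hosts did. The medians were 0.81 for the members and 0.01 for the hosts, and 95 members lay above their host. Across these 109 pairs the fold changes of member and host had a Spearman's correlation of 0.05. The mean of 5 is over all 6 libraries, so a low member can pass through the group in which it is high. Hosts mostly lie far above that limit, with a median value of 336 for those of all 332 members. These counts are therefore descriptions. The hosts of all 332 members on the same strand had a median of 0.03. Of 303 hosts, 58 were higher in all αKG libraries than in all DMSO libraries and 54 were lower. Over protein_coding rows with a mean of at least 10, 14.3% were higher and 22.8% lower, and over all rows 13.7% and 14.6%. The near even split of the hosts was not seen in the members. Members can be listed through αKG alone, so this contrast is a description too.

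**Figure D4:**
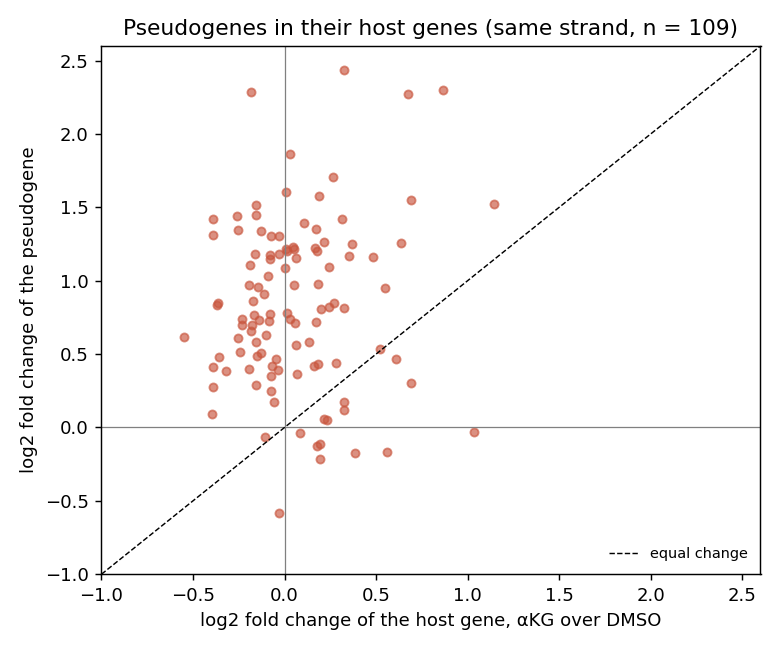
Log2 fold change (αKG over DMSO, of value + 1) of 109 processed pseudogenes on the host's strand with a mean of at least 5 (y axis) against that of the host gene (x axis). Each point is 1 pseudogene, and the dashed line marks equal change. Of the points, 95 lie above that line and 100 lie above 0. The mean is over all 6 libraries, so a member can pass through the group in which it is high.

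Each member's log2 value minus that of its host was tested over all 2731 non-coding rows that lie inside a coding gene. This difference was higher in αKG for 17 of 447 members and lower for 1, together 4.03% of them. Of all rows tested, 7.07% were called in either direction and 6.88% higher, so the share of members was below the background. Members on the host's strand gave 12 higher and 0 lower (3.61%), and those on the opposite strand 5 and 1 (5.22%). The median of the difference was 0.65 on the same strand and 0.02 on the opposite strand. Without αKG replicate 3, 101 members were higher and 16 lower, beside 36.5% of the rows. In single-library omissions other than that one, 0 to 3 members were called, without a share of all tested rows given here.

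Other non-coding rows in introns had the same direction. Rows of the biotype TEC, a class of transcripts that still await experimental proof, had a median difference of 1.00 inside a gene on its strand (1090 rows), 0.39 on the opposite strand (80 rows) and 0.36 outside (362 rows). The 209 sense_intronic rows on the host's strand had a median of 0.78. Of transcribed processed pseudogenes, a separate biotype for copies with transcript evidence, 27 on the host's strand had a median of 0.86 and 58 outside had −0.11. Rises were not confined to introns. Outside coding genes, 752 lincRNA rows (long intergenic non-coding) had a median of 0.33, with 507 positive and 225 negative, and 530 antisense rows 0.05. Of the members outside, 21 inside a non-coding row of their strand had 0.30. The 44 within 5000 bases downstream of a coding gene on their strand had 0.26, and the other 648 had 0. In 12 hosts both a pseudogene and a TEC or sense_intronic row had a mean of at least 5. Over these 12 hosts the median differences were 1.17 for the pseudogenes, 1.21 for the other rows and 0.29 for the hosts themselves. Both kinds of row had positive mean differences in 11 of them, the exception being *Ncoa7*, with −0.17 for the pseudogene and 2.30 for the TEC or sense_intronic rows.

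Single members show what stands behind these summaries. The highest inside a gene was *Gm18066*, a copy of the lysyl-tRNA synthetase gene *Kars* in an intron of *Palld*, the gene for the actin-associated protein palladin. Its values were 95, 102 and 90 in DMSO and 207, 164 and 120 in αKG. All αKG values were higher, with a log2 fold change of 0.74 (SE 0.19, adjusted p = 0.0584 by limma). *Palld* itself was at 2848, 2872 and 2824 in DMSO and 2522, 2371 and 2902 in αKG, and *Kars* at 431, 435 and 418 and at 405, 367 and 459, so neither host nor parent was separated between groups.

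*Gm14769*, whose sequence is shown above, is a copy of *Fam133b* in an intron of *Dmd*, the gene for dystrophin, on the X chromosome. It was at 21, 32 and 39 in DMSO and at 109, 112 and 58 in αKG. This was the largest called rise among members with a mean of at least 20, with a log2 fold change of 1.55 (SE 0.31, adjusted p = 0.0354 by limma). *Dmd* also rose, from 2523, 2747 and 2721 to 4693, 5239 and 3244 (log2 fold change 0.69, adjusted p = 0.0385), while *Fam133b* was at 434 to 460 in DMSO and 426 to 477 in αKG. The difference between *Gm14769* and *Dmd* was 0.86 (SE 0.35) and was not called (adjusted p = 0.114). A second member in *Dmd*, *Gm14770*, a copy of *Rps15a*, stayed between 0 and 3 in every library.

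The other called members with a mean of at least 20 were *Gm12097*, *Gm18991* and *Gm15793*. Of these, *Gm12097* and *Gm15793* each had a DMSO mean of 15.7 and passed that limit only through αKG. *Gm12097*, a copy of *Ccdc47* in an intron of the acylphosphatase gene *Acyp2*, was at 12, 21 and 14 in DMSO and 58, 39 and 34 in αKG (a log2 difference of 1.42, SE 0.31, adjusted p = 0.0422). *Acyp2* went the other way in its values, with 68, 82 and 91 in DMSO and 54, 54 and 76 in αKG, though it was not called. The difference between *Gm12097* and *Acyp2*, 1.81 (SE 0.41), was called (adjusted p = 0.0230).

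*Acyp2* holds a second copy, *Gm12098*, derived from *Rbm8a*. Its values were 8, 6 and 10 in DMSO and 22, 22 and 19 in αKG, close within each group. The log2 fold change of 1.31 (SE 0.32) narrowly missed a call (adjusted p = 0.0523 by limma). Its difference from *Acyp2* was 1.70 (SE 0.45, adjusted p = 0.0312). The difference from the shared host was thus called for both copies in this gene.

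*Gm18991*, a copy of *Nsa2* in *Arhgef7*, was at 16, 28 and 20 in DMSO and 65, 58 and 36 in αKG (a log2 difference of 1.27, SE 0.30, adjusted p = 0.0495). *Gm15793*, the copy of *Rpl12* in the acyl-CoA dehydrogenase gene *Acadl*, was at 15, 18 and 14 in DMSO and 41, 41 and 32 in αKG (1.22, SE 0.25, adjusted p = 0.0375). Both hosts were also higher in all αKG libraries, without a call. *Arhgef7* was at 1442, 1449 and 1393 in DMSO and 1703, 1644 and 1627 in αKG, and *Acadl* at 1054, 1056 and 1083 and at 1149, 1205 and 1225. The differences from the host, 1.05 (SE 0.39) for *Gm18991* and 1.06 (SE 0.39) for *Gm15793*, were not called (adjusted p = 0.0802 and 0.0809). Of the 75-base words of *Gm15793*, 64.4% were its own, while *Rpl12* itself was at 246, 222 and 248 in DMSO and 244, 298 and 228 in αKG.

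Among the remaining members with the highest means inside genes, 2 were copies in calcium channel genes, and neither of them was called. *Gm18981*, a copy of *Nr5a2* in *Cacna1c*, which encodes the pore of the L-type calcium channel, was at 59, 60 and 50 in DMSO and 113, 91 and 46 in αKG. *Gm13315*, a copy of the lactate dehydrogenase gene *Ldha* in *Cacnb2*, an auxiliary subunit of that channel, was at 31, 29 and 25 in DMSO and 74, 69 and 23 in αKG. In both, αKG replicates 1 and 2 lay above every DMSO library and replicate 3 below every one. Without replicate 3, *Gm18981* was called at 0.84 (adjusted p = 0.00728) and *Gm13315* at 1.31 (adjusted p = 0.00220).

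A like split was seen in *Gm7584*, a copy of *Cdyl* in *Txlnb*, with 36, 44 and 37 in DMSO and 82, 62 and 34 in αKG. *Gm9042*, a copy of *Ik* in *Pcgf5*, was at 22, 38 and 28 in DMSO and 81, 85 and 35 in αKG, and *Gm14239*, a copy of *Cdv3* in *Ncoa6*, was at 17, 41 and 31 and at 61, 54 and 27. None of these 3 was called. Without αKG replicate 3, *Gm7584* was called at 0.86 (adjusted p = 0.0125) and *Gm9042* as well (adjusted p = 0.00497), while *Gm14239* at 1.01 was not (adjusted p = 0.0635). *Gm48869*, a copy of *Rps6* in *Dip2c*, was at 14, 22 and 26 in DMSO and 80, 76 and 29 in αKG. Its own change was not called (log2 fold change 1.44, adjusted p = 0.0679), but its difference from *Dip2c*, which was at 1510 to 1567 in DMSO and 1162 to 1485 in αKG, was called (1.70, SE 0.43, adjusted p = 0.0269).

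**Figure D5:**
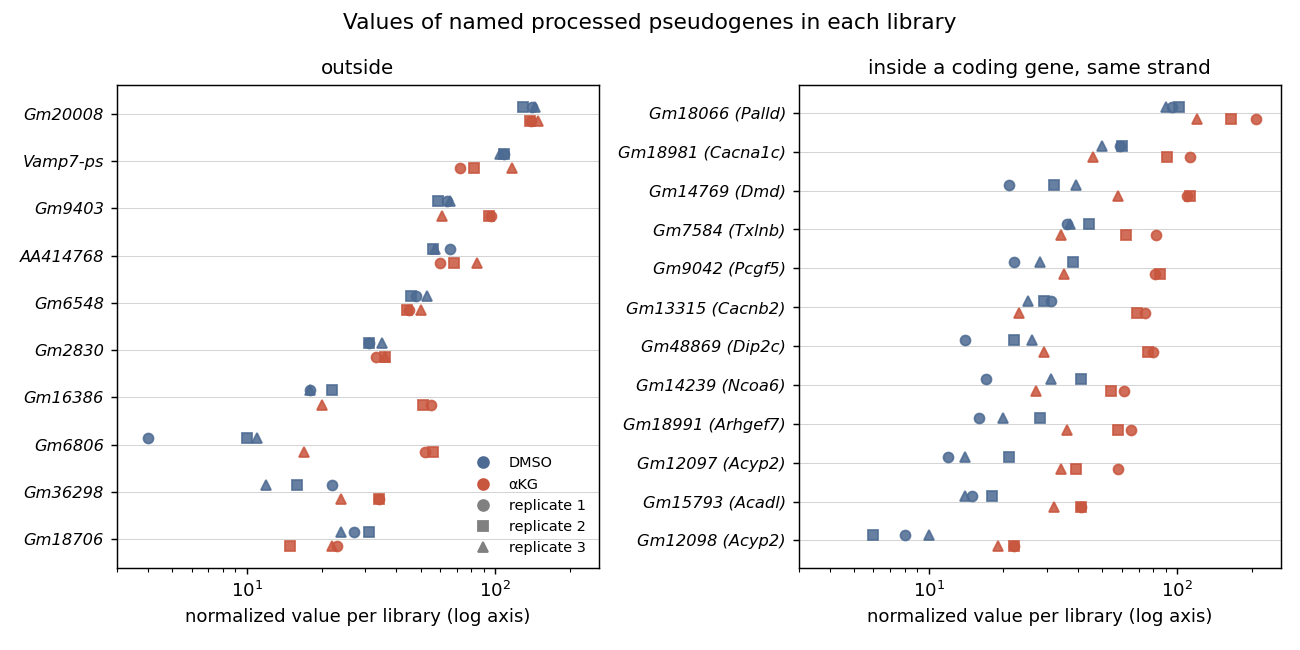
Normalized values of named processed pseudogenes in each of the 6 libraries on a log axis, outside genes (left) and inside a coding gene on its strand (right, host in brackets). Blue is DMSO, red is αKG, and the symbol gives the replicate number. On the right, αKG replicates 1 and 2 lie to the right of the DMSO values in every row and replicate 3 often lies among them, as in Gm13315 at 74, 69 and 23.

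The 3 called members below that level are named after their values were seen. *Gm8663*, a copy of *Morf4l1* in *Kif11*, the gene for a motor protein of the mitotic spindle, was at 3, 4 and 1 in DMSO and 23, 19 and 9 in αKG (adjusted p = 0.0429). *Gm16236* in *Bard1*, the gene for a partner of BRCA1 in DNA repair, was at 1, 0 and 1 and at 8, 9 and 4 (adjusted p = 0.0446). Their hosts rose too, *Kif11* from 662, 453 and 325 to 812, 815 and 897 and *Bard1* from 124, 92 and 72 to 158, 188 and 251 (adjusted p = 0.0489 and 0.0389). *Gm19144*, a copy of *Hnrnpr* opposite to *Sav1*, was at 0 in every DMSO library and at 3, 4 and 3 in αKG (adjusted p = 0.0429), about 3 reads per library. *Gm16236* and *Gm19144* stayed under 2 in DMSO. They were listed through αKG alone and had to differ, so their calls are descriptions.

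Among the hosts, 3 held 3 members each. In *Trdn*, the gene for triadin of the sarcoplasmic reticulum, *Gm20304* was at 1, 3 and 2 in DMSO and 8, 9 and 1 in αKG, *Gm29884* was at 0 in DMSO and at 2, 3 and 1 in αKG, and *Gm47845* was between 0 and 3 in both groups. In *Zbtb20*, which encodes a zinc finger transcription factor, *Gm15712* was at 8, 16 and 9 in DMSO and 31, 36 and 6 in αKG, but *Gm15711* (3 to 6 and 3 to 9) and *Ndufs5-ps* (6 to 8 in both groups) overlapped throughout. In *Senp5*, the gene for a SUMO protease, *Hmgb1-ps6* was at 6, 4 and 3 and at 12, 8 and 8, *Gm15696* at 3 to 6 and 2 to 7, and *Gm15694* at 0 in 5 of 6 libraries. None of these 9 members was called with all libraries. Leaving out αKG replicate 3 gave calls for *Gm20304* at 1.72 (adjusted p = 0.0213), *Gm15712* at 1.58 (adjusted p = 0.0129) and *Gm29884* (adjusted p = 0.0172), whose DMSO values are all 0. In that setting 37.2% of all rows were called, so calls among 9 members do not set them apart. *Gm29884* was listed through αKG alone and had to differ. Differences between members of a host were not tested.

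Outside genes the picture was mixed. The highest member there, *Gm20008*, is annotated with 2 exons on chromosome 17 and aligned best to *Gm13212*, at 74.8% identity. It was level, with 140, 129 and 145 in DMSO and 139, 138 and 148 in αKG (a log2 difference of 0.04, SE 0.11). *Vamp7-ps*, named as a copy of the gene for a vesicle fusion protein, was at 108, 108 and 104 in DMSO and 72, 82 and 117 in αKG (−0.27, SE 0.18, adjusted p = 0.356). Its αKG replicates 1 and 2 lay below and replicate 3 above every DMSO library. Without replicate 3 it fell by 0.47 on the log2 scale (adjusted p = 0.0150).

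Outside genes, 2 copies of highly transcribed genes had close values in both groups. *Gm6548*, a copy of the elongation factor gene *Eef1a1*, was at 48, 46 and 53 in DMSO and 45, 44 and 50 in αKG, and *Gm2830*, a copy of *Rps24*, at 31, 31 and 35 and at 33, 36 and 36. *AA414768*, which aligned best to *E330021D16Rik*, was at 56 to 66 in DMSO and 60 to 84 in αKG. *Gm9403*, a copy of the chaperone gene *Hsp90ab1* 708 bases from *Tbck*, was at 64, 59 and 66 in DMSO and 96, 94 and 61 in αKG (0.38, SE 0.20), and *Hsp90ab1* itself was at 1606 to 1646 and 1610 to 1693. None of these 4 was called, but without αKG replicate 3 *Gm9403* was higher by 0.59 (adjusted p = 0.00864).

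The largest positive difference among members outside with a mean of at least 20 and no overlap between groups, all without a call, was that of *Gm6806*, a diverged copy (72.7% identity) of the cochaperone gene *Dnaja1* on the X chromosome, 174410 bases from the nearest listed coding gene, *Fmr1*. It was at 4, 10 and 11 in DMSO and 52, 56 and 17 in αKG. With a DMSO mean of 8.33 it passed the limit of 20, set on all 6 libraries, only through αKG. All αKG values were higher (2.12, SE 0.51), and the adjusted p of 0.0507 by limma narrowly missed a call. Without αKG replicate 3 the difference was 2.66 (adjusted p = 0.00476). *Dnaja1* was at 174 to 186 in DMSO and 155 to 179 in αKG. All 75-base words of *Gm6806* were its own, so that its full-length reads can be told from those of its parent.

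*Gm16386* is the longest member, with a span of 30520 bases on chromosome 17, and aligned best to the zinc finger gene *Zfp946*. It was at 18, 22 and 18 in DMSO and 55, 51 and 20 in αKG (0.96, SE 0.37, adjusted p = 0.133). *Gm36298*, which aligned best to *Gm49359*, was at 22, 16 and 12 and at 34, 34 and 24 (0.86, SE 0.30, adjusted p = 0.111). Without αKG replicate 3 both were called, at 1.41 (adjusted p = 0.00268) and 1.03 (adjusted p = 0.0307). The only member outside with a mean of at least 20 whose αKG values were all below DMSO was *Gm18706*, a copy of *Epb41l5*, at 27, 31 and 24 in DMSO and 23, 15 and 22 in αKG (−0.45, SE 0.27, adjusted p = 0.303). No member inside a gene met that rule. The limit of 20 is on the mean over all 6 libraries, so a member can pass through the group in which it is high. *Gm36298*, with a DMSO mean of 16.7, passed through αKG.

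The members go back to many parents. Of 1151 members with an M21 sequence, 1128 had a protein-coding parent by alignment, and these were 619 genes. Identity had a median of 95.3% outside, 94.8% on the opposite strand and 90.3% on the host's strand. Of 135 members with a symbol ending in -ps, 133 had a parent by alignment, and in 117 it was the gene named by the symbol. In 35 members no 75-base word was their own, in 403 every word was, and in 197 fewer than 50% were. Trimmed reads could be shorter than 75 bases, so that these shares are upper limits of what reads could tell apart.

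By function of the parent, ribosomal proteins made up the largest class, with 247 members. Their median difference was 0.59 on the host's strand (104 members, 14 above in all αKG libraries and 0 below), and outside it was 0.04 (122 members, 5 and 2), beside 13.7% of all rows above and 14.6% below. The share above on the host's strand was thus near that of all rows. Histones and chromatin proteins had 85 members, with medians of 0.92 on the host's strand (18 members) and 0.14 outside (53). Glycolysis had 81 members, with 0.60 on the host's strand (8) and 0 outside (65). In each of these 3 classes the median was higher on the host's strand than outside, which was not tested.

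Mitochondrial proteins had the lowest median outside. Their 33 members there summed to 93, 96 and 113 in DMSO and 69, 56 and 79 in αKG, with a median difference of −0.47, and the groups did not overlap. Of them 3 were lower in all αKG libraries, a smaller share than the 14.6% of all rows, 0 were higher and 0 were called. Only 1 of the 33 members had a mean of at least 10, so the median and sums rest on few reads per member. Their 22 listed parents had a median of −0.17. On the host's strand the 15 members of this class had a median of 0.11, with 3 above and 0 below. Sums of the ribosomal class outside were apart in the other direction, at 318, 309 and 318 in DMSO and 358, 374 and 329 in αKG. So were those of the 3 cell cycle copies outside, at 1 in each DMSO library and at 3, 3 and 6 in αKG. With such sums none of these copies reached 2 in DMSO. All 3 were thus listed through αKG alone and had to differ.

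The genes with most listed copies were *Gapdh* with 63 and *Hmgb1*, which encodes a DNA-bending chromatin protein, with 44. Copies of *Gapdh* summed to 101, 91 and 104 in DMSO and 112, 107 and 89 in αKG, with overlap, and *Gapdh* itself was at 292, 264 and 299 and at 358, 360 and 272. Copies of *Hmgb1* summed to 115, 110 and 126 in DMSO and 173, 192 and 146 in αKG, all higher, while *Hmgb1* itself was at 204 to 205 and at 208 to 235, also without overlap. Of the *Hmgb1* copies 27 lay outside, 6 on a host's strand and 11 opposite to a host.

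Identity to the parent divided the members as well. Outside genes, the 175 members with at least 98% identity had a median difference of −0.25, with 53 positive and 118 negative, the 362 with 90 to 98% had 0.04, and the 167 under 90% had 0.19. Members of at least 98% summed to 623, 649 and 654 in DMSO and 491, 490 and 614 in αKG, so that the groups did not overlap and αKG was lower. Members under 90% summed to 655, 702 and 684 in DMSO and 953, 914 and 745 in αKG, with αKG higher. The listed parents of the 3 bins had medians of −0.04, −0.01 and 0.03. In the most alike bin a median of 37.1% of 75-base words were the member's own, and in the least alike bin 100%.

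On the host's strand the bin of at least 98% identity also had the lowest median, while the other bins were level with each other. The median was 0.09 for 38 members with at least 98% identity, 0.72 for 121 with 90 to 98% and 0.72 for 151 under 90%. The members most like their parents summed to 139, 165 and 155 in DMSO and 155, 155 and 155 in αKG, whereas those under 90% summed to 644, 784 and 689 and to 1752, 1656 and 834. Among members of at least 98% identity, the fold changes of member and parent had a Spearman's correlation of 0.26 outside (170 pairs) and 0.36 on the host's strand (38 pairs), against −0.13 (153 pairs) and −0.04 (144 pairs) under 90%. On the opposite strand it was 0.50 (26 pairs), 0.30 at 90 to 98% (62 pairs) and 0.30 under 90% (23 pairs), so that the drop was not seen in full there. These points share libraries and parents, and reads that were cut short could fit both genes. How much of each value came from reads of the parent was not tested.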

How the data were processed

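Total RNA of 6 CM samples was sequenced, 3 with DMSO and 3 with αKG. Per the methods and processing notes, the authors trimmed 75-base single-end reads (Trimmomatic 0.39), aligned them to mm10 (GRCm38.p5) with STAR 2.7.10a and counted reads at least partly in exons with featureCounts 2.0.3, leaving out reads of several genes or places. The strand setting was not given in the sources used here, so that reads of a row and of an overlapping gene on the other strand may not be told apart. The deposited values are termed a score, because the authors had divided counts by a size factor and rounded them to whole numbers. Picard 2.27.1 is in the processing notes without a role, and whether PCR copies were removed from these libraries is not given in the sources used here, so that floors in reads cover counting error only.

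The members and lists were chosen with earlier results of these data known. From the score, log2(value + 1) was computed for all 20066 rows and tested with limma 3.58.1 (R 4.3.3) with a mean trend, treatment as the only term, and Benjamini-Hochberg adjustment over all rows. Tested on simulated data for this comparison over 20066 rows, 60 of 98 rows changed by 1 log2 unit and 79 of 102 changed by 2 were called, each in its true direction. A further 18 rows that had not been changed were also called. The changed rows were drawn from those with a DMSO mean of at least 5. All rows had the same simulated spread (dispersion 0.00245), taken from DMSO rows with a mean of at least 50. The spread that αKG replicate 3 brings was thus not simulated. Members had a median mean of 1.83, so these rates do not apply to most of them. Positions, exons and sequences came from GENCODE M21. Parents were found with BLAST 2.17.0 (word size 16, E-value limit 1e-10, same strand, host left out). Host was the containing coding row with the highest mean. Named were the 8 highest means inside and outside, called members with a mean of at least 20 (the 6 largest each way, otherwise the 5 largest without overlap), -ps members with a mean of at least 50, the longest member, and members sharing a host with a called one. Limits on the mean were set over all 6 libraries, so a row could pass through the group in which it was high. The value of 1 read was estimated from the spacing of low values.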

Additional observations from a re-analysis of the deposited data

How the results depend on the processing

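The direction of the medians inside genes held in every setting tried, with 0.46 to 0.79 when each library was left out in turn, 0.87 with a pseudocount of 0.1 and 0.24 with quantile normalization. On the host's strand the values were 0.50 to 0.92, 1.07 and 0.34. That split by strand was chosen after seeing the data. Outside, the median was 0.12 and 0.13 with filters of 10 and 50 on the mean, 0.091 with limma-voom on estimated reads, −0.36 with quantile normalization and −0.056 to 0.028 without single libraries. On the opposite strand it was 0.30, with 3 members left by the filter of 10 (none passed 50), 0.12 with voom, 0.18 with a pseudocount of 0.1, −0.29 with quantile normalization and 0 to 0.13 without single libraries.

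Calls were few and moved with most settings. Of all members, of those inside and of those on the host's strand, 7, 7 and 6 were called. The counts were 134, 79 and 68 at an unadjusted p under 0.05 (28.1% of all rows), 2, 1 and 0 without the mean trend, and 0 in each with voom or with DMSO replicates 2 and 3 averaged. They were 1 in each with a filter of 50, where 7, 3 and 3 members were left, and 2 in each with a pseudocount of 0.1 or quantile normalization. Without single libraries they ranged from 0 to 150, 0 to 95 and 0 to 85, the upper values without αKG replicate 3. Outside, 0 were called, but 55 at an unadjusted p, 1 without the mean trend, 2 after scaling every library to 1 total and 0 to 55 without single libraries. The difference from the host was called in 18 members, in 0 without the trend or with a pseudocount of 0.1, and in 0 to 117 without single libraries. Shares of all rows called are given only at the unadjusted p and, above, without αKG replicate 3. The other counts have no such background and describe the members alone. The cause was not tested.

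Replicate numbers did not pair the libraries (correlations of same-numbered deviations −0.03, 0.06 and 0.02). With the replicate number as a block, 0 members were called in each of the 3 sets, and 21 for the difference from the host. Of 367 values of 26 named members, 279 kept direction and side of the threshold, 72 lost the call and 14 gained it. The 2 that turned were *Gm20008* without DMSO replicate 2 (−0.0089, within −0.0089 to 0.075 over single omissions) and *Gm2830* with quantile normalization (−0.19). Depth limits low members, since 3 reads correspond to a value of 2.78 to 3.36.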
